A study of Mus musculus with 4 samples.

Results

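Mural cells of the vessel wall, the pericytes and vascular smooth muscle cells, were taken from single-cell RNA sequencing of the tenotomy site 7 days after burn/tenotomy (BT) injury. A barcode (the droplet label that stands for 1 captured cell) was counted as mural where Rgs5, Myh11, Abcc9 and Mylk together gave at least 10 UMIs (unique molecular identifiers, each 1 captured RNA molecule), where these exceeded the summed UMIs of the endothelial genes Pecam1, Cdh5, Egfl7 and Cldn5, and where the mesenchymal genes Thbs4, Comp, Fmod, Sfrp2 and Prg4 gave under 0.1% of all UMIs. Of 2293 barcodes with at least 200 genes and at most 20% mitochondrial UMIs, 208 met this rule, among 3569 deposited barcodes. The pooled library of replicates 1 and 2 held 131 mural barcodes of 1415, or 9.26% (exact 95% binomial interval 7.80 to 10.9), and the library of replicate 3 held 77 of 878, or 8.77% (6.98 to 10.8). These intervals cover counting error only.

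Both single-cell libraries came from unsorted cells of mice labelled Hoxa11CreER;ROSA-LSL-TdTomato;Hif1a fl/fl, which received tamoxifen at 75 mg/kg daily for 5 days before the injury. Hoxa11CreER drives recombination in the zeugopod, the lower limb segment that holds the tenotomy site, so only cells of that lineage are open to the deletion of floxed Hif1a, and which mural barcodes had recombined was not read here. The labels do not write whether single mice carried Cre, and littermates without Cre were not analysed here, which leaves no genotypes to compare. A separate set of 2 Visium sections, A1 and B1, came from wild-type C57BL/6 mice aged 10 weeks, also 7 days after BT, and carried none of these alleles.

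Pericytes lie along capillaries within the basement membrane that they share with the endothelium, and vascular smooth muscle cells encircle arterioles and arteries and set their diameter. Endothelial PDGF-B recruits both through the receptor Pdgfrb, and Notch ligands on neighbouring cells maintain them through Notch3. Smooth muscle cells carry an actin and myosin apparatus that serum response factor and its coactivator myocardin switch on at CArG boxes, whereas pericytes of several mouse tissues are recognised by an ATP-sensitive potassium channel built from Kcnj8 and Abcc9.

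Promoters are shown for genes of the contractile list and of the rule, because the CArG box is the element named above. The windows run from 250 bases before to 50 bases after the start site (RefSeq, mouse build GRCm38.p6). For Vcl and Myl6 only a stretch is printed, with 50 bases on each side of the CArG box or up to the edge of the window. A strict CArG box (CCWWWWWWGG, where W is A or T) was searched on both strands, and so was GTGGGAA, the core bound by the Notch effector RBPJ. Of 32851 promoters, 1.63% held a strict CArG box and 6.38% held GTGGGAA. Of the 26 genes of the contractile list, 23 had a promoter in the table, and 3 of them held a CArG box (Myl9, Vcl and Myl6) in 10.7% of their 28 promoters, with GTGGGAA in 7.14%. Of the 20 genes of the pericyte list, 16 were matched, with a CArG box in 0 and GTGGGAA in 15% of 20 promoters (Ebf1, Gucy1a1 and Tbx18). The strict CArG boxes are in capitals. The 3 promoters with no strict box are Acta2, whose RNA is the main actin of smooth muscle, and the rule genes Rgs5 and Abcc9. The Acta2 window does hold ccctatatgg and ccttgtttgg, each of which departs from the strict pattern at a single base. A match describes letters and not a working site, and a window without one says only that these letters are not in it. On the strand of the gene, the Myl9 box lay 151 bases from the start site, the Vcl box 217 and the Myl6 box 40.
Myl9, chr2:156775214-156775513, plus strand: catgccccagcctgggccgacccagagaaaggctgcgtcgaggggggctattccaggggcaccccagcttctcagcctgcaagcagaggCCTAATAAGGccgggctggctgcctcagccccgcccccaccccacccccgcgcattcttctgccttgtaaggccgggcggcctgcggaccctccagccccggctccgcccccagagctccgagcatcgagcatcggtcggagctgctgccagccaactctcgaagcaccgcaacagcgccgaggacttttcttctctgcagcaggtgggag
Vcl, chr14:20929148-20929230, plus strand: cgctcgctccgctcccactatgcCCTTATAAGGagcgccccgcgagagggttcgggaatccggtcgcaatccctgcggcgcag
Myl6, chr10:128493000-128493109, minus strand: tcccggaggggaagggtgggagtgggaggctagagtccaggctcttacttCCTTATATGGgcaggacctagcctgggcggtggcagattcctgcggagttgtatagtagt
Acta2, chr19:34255324-34255623, minus strand: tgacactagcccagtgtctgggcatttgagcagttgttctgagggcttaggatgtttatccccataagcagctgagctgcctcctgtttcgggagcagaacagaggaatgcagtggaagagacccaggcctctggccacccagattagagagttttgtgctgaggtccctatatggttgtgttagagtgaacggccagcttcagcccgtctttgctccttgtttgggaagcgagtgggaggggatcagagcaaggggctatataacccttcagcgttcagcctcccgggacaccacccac
Rgs5, chr1:169655251-169655550, plus strand: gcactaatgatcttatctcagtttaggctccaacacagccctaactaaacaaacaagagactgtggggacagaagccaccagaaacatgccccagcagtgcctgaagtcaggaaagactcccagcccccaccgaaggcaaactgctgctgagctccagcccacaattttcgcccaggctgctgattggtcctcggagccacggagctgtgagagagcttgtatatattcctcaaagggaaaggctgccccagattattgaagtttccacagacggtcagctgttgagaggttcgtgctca
Abcc9, chr6:142702225-142702524, minus strand: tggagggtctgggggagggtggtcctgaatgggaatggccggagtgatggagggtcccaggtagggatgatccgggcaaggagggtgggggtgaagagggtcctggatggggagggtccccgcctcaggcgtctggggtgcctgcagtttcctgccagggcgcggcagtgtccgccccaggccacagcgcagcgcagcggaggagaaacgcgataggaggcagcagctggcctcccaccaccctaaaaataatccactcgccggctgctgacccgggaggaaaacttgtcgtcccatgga

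The mural barcodes together held 2779480 UMIs in the pooled library and 1916557 in replicate 3, with a median of 19667 and 22263 UMIs per barcode. Single barcodes ran from 749 to 90004 UMIs in the pooled library and from 987 to 88826 in replicate 3. The groups they are set beside were defined by the same 13 genes. Endothelial barcodes (85 in the pooled library and 40 in replicate 3, median 15589 and 14483 UMIs) had at least 10 UMIs of the endothelial genes, and mesenchymal barcodes (303 and 210, median 46340 and 46227 UMIs) had at least 0.1% of the mesenchymal genes and under 10 UMIs of each of the other sums. The libraries shared 1 barcode sequence among the deposited barcodes.

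In the rest of the text, paired values give the pooled library first and replicate 3 second, and levels are UMIs per 1000000 UMIs of the group (CPM). Rgs5, a regulator of G-protein signalling and a classical pericyte gene, stood at 5388 and 4217 CPM in mural barcodes, against 159 and 56.9 in endothelial and 2.14 and 1.68 in mesenchymal barcodes. Myh11, the smooth muscle myosin heavy chain, stood at 1122 and 686 CPM in mural barcodes, against 3.32 and 0 in endothelial and 0.147 and 0.2095 in mesenchymal barcodes. Abcc9, the regulatory subunit of the pericyte potassium channel, had 404 and 416 CPM and Mylk, the kinase that starts smooth muscle contraction, had 1114 and 746 CPM in mural barcodes. These 4 genes chose the barcodes, so their levels are a description. Rgs5 supplied over 50% of the 4-gene sum in 144 of the 208 barcodes, Myh11 in 21, Abcc9 in 9 and Mylk in 9, while Rgs5 was at 0 in 21 barcodes and Myh11 in 41.

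Single barcodes differed widely in these genes. Per 10000 UMIs of a barcode, Rgs5 had a median of 51.9 and 43.2 and a highest value of 427 and 193. Myh11 had a median of 5.34 and 2.43 and a highest value of 70.5 and 72.4. Rgs5 was detected in 91.6% and 87.01% of mural barcodes, against 10.6% and 25% of endothelial and 7.26% and 6.19% of mesenchymal ones. Mesenchymal barcodes were deeper, but their definition capped the UMI sum of the mural genes of the rule. Their shares were limited by that choice and do not measure background. Myh11 was detected in 83.97% and 74.03% of mural barcodes, against 2.35% and 0% of endothelial and 0.6601% and 0.476% of mesenchymal ones.

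Of the 5 markers given for the class, Acta2 and Tinagl1 took no part in the rule. Acta2, smooth muscle actin, stood at 6369 and 4681 CPM in mural barcodes, against 22.6 and 25.7 in endothelial and 560.1 and 634 in mesenchymal barcodes, and was detected in 83.97% and 87.01% of mural barcodes. Tinagl1, a matricellular protein of vessel walls, stood at 721 and 496 CPM in mural barcodes, against 343 and 294 in endothelial and 0.663 and 0.314 in mesenchymal barcodes, so it was far above mesenchymal barcodes and closer to endothelial ones (log2 fold change 0.97 ± 0.15, SE). The other 3 markers, Rgs5, Myh11 and Abcc9, are genes of the rule, so their presence does not check the label. Against endothelial barcodes that check rests on Acta2, since the Tinagl1 level was not far from the endothelial one. Against mesenchymal barcodes Acta2 is a weak check. With each barcode thinned to 5000 UMIs, it was detected in 79.3% and 79.7% of mural and in 44.6% and 40% of mesenchymal barcodes. On that side the Tinagl1 levels lay further apart.

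Of the markers of other cell types, the mesenchymal ones stood high. The 6 mesenchymal markers summed to 6459 and 10987 CPM in mural barcodes, against 43706 and 46077 in mesenchymal barcodes, all 6 being detected in both libraries. The 5 mural markers summed to 14004 and 10496 CPM in the same mural barcodes, so in replicate 3 the mesenchymal sum was the higher of the pair. The 6 endothelial markers summed to 202 and 114 CPM in mural barcodes, against 4338 and 5198 in endothelial barcodes, and 77.4% and 68.8% of their UMIs came from 3 barcodes in each library. The macrophage markers summed to 33.5 and 43.3 CPM with C1qa at 0, neutrophil markers to 40.3 and 8.35 with Retnlg at 0, T or NK markers to 10.1 and 1.04, skeletal muscle markers to 6.12 and 4.70 with Myh4 at 0, and satellite cell markers to 0 and 5.74 with Pax7 and Myf5 at 0. B cell markers reached 0.360 and 3.65 CPM, mast cell markers 0.360 and 0, Schwann cell markers 0.720 and 0, and keratinocyte markers 116 and 15.1. Hemoglobin genes gave 3721 and 29.7 CPM in mural barcodes, against 4599 and 4786 in all other kept barcodes, and 5 mural barcodes of the pooled library had over 1% of their UMIs from them. Ptprc, which marks leukocytes, was detected in 5 mural barcodes of the pooled library and 1 of replicate 3.

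The rule cut a graded edge. Of 227 barcodes with at least 10 UMIs of the 4 mural genes, 6 failed the endothelial clause and 13 the mesenchymal limit, 11 of the 13 in replicate 3. Just inside the threshold, 18 barcodes (7 and 11) had 10 to 14 UMIs of these genes, and just outside it 38 (21 and 17) had 5 to 9. Notch3 stood at 133 and 26.4 CPM just inside, against 11.3 and 3.98 just outside, and Tinagl1 at 149 and 18.5, against 6.45 and 7.95. Acta2 did not fall in this way, with 299 and 1440 CPM just inside and 954 and 1282 just outside, and Col1a1 was high on both sides, with 26761 and 22585 CPM inside and 28448 and 31901 outside. The median depth was 5453 and 35660 UMIs inside, against 29416 and 34041 outside.

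A fringe of 11 members (5 and 6) met the rule with under 2 UMIs each of Rgs5 and of Myh11. Pdgfra, the fibroblast PDGF receptor, stood at 185 and 208 CPM in this fringe, against 12.7 and 15.3 in the other members, and Col1a1 at 17679 and 25797, against 3849 and 6292. Notch3 stood at 19.7 and 52.9 CPM in the fringe, against 486 and 382 in the other members, and Acta2 at 629 and 310 in the fringe, against 6947 and 5440 in the other members. Mmp3, Gdf10 and Cygb, chosen after their values were seen, were also higher in the fringe: Mmp3 stood at 460 and 769 CPM in the fringe, against 4.36 and 53.9 in the other members. The fibroblast genes named here were higher in the fringe in both libraries, and the fits below were repeated without it.

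Mural barcodes were set beside endothelial and mesenchymal barcodes in 1 fit of UMI sums per library. Because the 3 groups were picked on 13 genes read in the same barcodes, every difference here describes the barcodes chosen, and nothing is supported by the number of genes past the threshold. Against endothelial barcodes, 2129 of 11503 genes tested were higher (18.5%) and 1716 lower (14.9%) at an adjusted p under 0.05 (edgeR quasi-likelihood test, Benjamini-Hochberg). Against mesenchymal barcodes, 1902 were higher (16.5%) and 1754 lower (15.2%). Counting both directions, 33.4% and 31.8% of the genes passed. Each list count below is read beside these shares of all genes. Over all genes tested, the median log2 fold change was 0.03 and 0.01. The fit set aside the level difference between the 2 libraries, so the p-values measure how far a group difference varied from library to library. The number of mice in each library is not given beyond the replicate numbers.

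The contractile list separated mural barcodes from both neighbours. Of 24 genes tested, 19 were higher and 1 lower than in endothelial barcodes (median log2 fold change 2.96), and 19 were higher and 1 lower than in mesenchymal barcodes (2.07). Tagln, an actin-binding protein of smooth muscle, stood at 4658 and 3017 CPM in mural barcodes, against 146 and 184 in endothelial (log2 fold change 4.58 ± 0.26, SE) and 516 and 522 in mesenchymal barcodes (2.71 ± 0.24). Myl9, the regulatory light chain that Mylk phosphorylates, stood at 1617 and 1143 CPM in mural barcodes, against 18.6 and 8.12 in endothelial and 154 and 153 in mesenchymal barcodes. Des, a muscle intermediate filament protein, stood at 359 and 406 CPM in mural barcodes, against 4.65 and 0 in endothelial and 6.34 and 5.87 in mesenchymal barcodes. Actg2, a second smooth muscle actin, had 419 and 398 CPM in mural barcodes and 0 UMIs in endothelial barcodes, so it was at least 210-fold higher in the pooled library and at least 98.0-fold higher in replicate 3 with a floor of 3 UMIs per library. Cnn1, calponin, had 306 and 127 CPM against 0 UMIs, at least 154-fold and 31.2-fold higher, and Pln, which restrains the calcium pump of the sarcoplasmic reticulum, had 46.4 and 39.1 CPM against 0 UMIs, at least 23.3-fold and 9.64-fold higher. The gene that was lower on both sides was Tes, a focal adhesion protein, at 7.92 and 19.8 CPM in mural, 106 and 98.8 in endothelial and 24.2 and 28.8 in mesenchymal barcodes. Against mesenchymal barcodes the Tes call was lost with DESeq2 (-1.20), without a filter on low counts (-1.29) and with marker sums of at least 5 UMIs (-0.56).

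**Figure D1:**
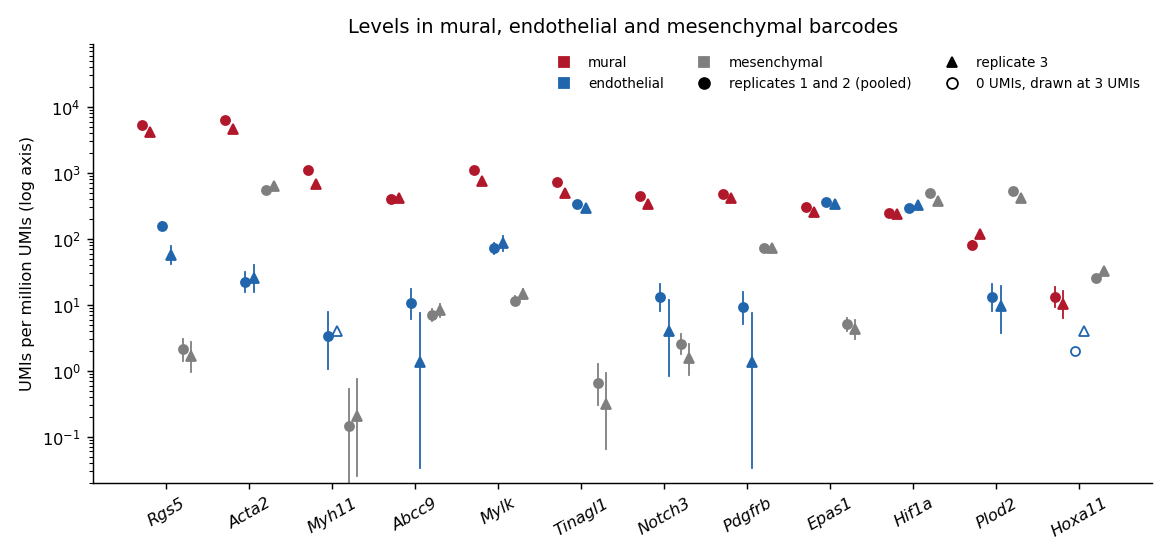
CPM (log axis) of 12 genes in mural, endothelial and mesenchymal barcodes of the pooled library (circles) and replicate 3 (triangles), with exact 95% Poisson intervals that cover counting error only, cut off at the axis edge, and with 0 UMIs drawn open at the level of 3 UMIs. Notch3 and Pdgfrb stood highest in mural barcodes in both libraries, Epas1 was near equal in mural and endothelial barcodes, and Hif1a and Plod2 stood highest in mesenchymal barcodes.

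Pericyte genes were also higher in mural barcodes. Of 18 pericyte-list genes tested, 17 were higher and 0 lower than in endothelial barcodes (median 5.05), and 16 were higher and 2 lower (Aspn and Anpep) than in mesenchymal barcodes (median 2.82). Kcnj8, the pore of the channel that Abcc9 completes, stood at 236 and 218 CPM in mural barcodes, against 4.65 and 0 in endothelial and 5.53 and 5.55 in mesenchymal barcodes. Higd1b, a mitochondrial protein gene used as a pericyte marker, had 154 and 164 CPM in mural barcodes, 4.65 and 1.35 in endothelial barcodes and 0 UMIs in mesenchymal barcodes, at least 695-fold and 523-fold higher than in mesenchymal ones. Vtn, vitronectin, stood at 169 and 123 CPM in mural barcodes, against 2.66 and 0 in endothelial barcodes. Aspn, asporin, a small matrix proteoglycan, stood at 307 and 474 CPM in mural barcodes and 1629 and 2094 in mesenchymal barcodes, where it was higher. That call was lost with DESeq2 (-2.42) and with marker sums of at least 5 UMIs (-1.77).

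Transcription factors of mural cells were more often higher than lower beside both neighbours. Of 26 tested, 13 were higher and 3 lower than in endothelial barcodes, and 18 were higher and 3 lower than in mesenchymal barcodes. Foxs1, a forkhead factor expressed in pericytes, had 65.8 and 63.1 CPM in mural barcodes, 0 UMIs in endothelial barcodes (at least 33.0-fold and 15.5-fold higher) and 3.54 and 2.93 CPM in mesenchymal barcodes (log2 fold change 4.14 ± 0.22). Myocd, the myocardin gene, had 31.3 and 19.8 CPM in mural barcodes, 0 UMIs in endothelial barcodes (at least 15.7-fold and 4.88-fold higher) and 0.147 and 0 CPM in mesenchymal barcodes. Prrx1, a limb mesenchyme factor, separated mural from endothelial barcodes, at 591 and 609.9 CPM in mural against 7.305 and 2.71 in endothelial barcodes, and was also above the mesenchymal level of 215 and 235. Klf2 and Zeb1 were lower than in both neighbours, Klf2 at 235 and 178 CPM in mural barcodes, against 541 and 608 in endothelial and 423 and 543 in mesenchymal barcodes.

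Notch genes split by side of the vessel wall. Of 18 Notch genes tested, 6 were higher and 8 lower than in endothelial barcodes, and 12 were higher and 2 lower than in mesenchymal barcodes. The shares of all genes, in the same order, were 18.5%, 14.9%, 16.5% and 15.2%. Dll4, Jag2, Notch4, Notch1, Dll1 and Lfng were higher than in mesenchymal barcodes and lower than in endothelial ones. Mesenchymal barcodes were capped at under 10 UMIs of the endothelial genes of the rule, and mural barcodes had no such cap. That choice favours endothelial genes on the mural side of the second comparison. The receptor Notch3 stood at 443 and 333 CPM in mural barcodes, against 13.3 and 4.06 in endothelial (5.44 ± 0.27 on the log2 scale) and 2.58 and 1.57 in mesenchymal barcodes. Its target Heyl had 58.6 and 54.8 CPM in mural barcodes, against 3.32 and 0 in endothelial and 0.295 and 1.36 in mesenchymal barcodes. The endothelial ligand Dll4 stood at 4.68 and 2.09 CPM in mural barcodes and 65.1 and 69.04 in endothelial barcodes (-4.20 ± 0.43). The receptor Notch1 stood at 60.4 and 45.4 CPM in mural and 215 and 250.4 in endothelial barcodes. Jag1, a ligand made by both cell types, was higher in mural barcodes, at 139 and 115 CPM against 55.8 and 44.7 in endothelial barcodes (1.36 ± 0.24).

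When each library was thinned to 5000 UMIs per barcode, Notch3 was still detected in 76.9% of 121 and 75.4% of 69 mural barcodes, against 3.66% of 82 and 2.78% of 36 endothelial barcodes and 1.85% of 271 and 2.11% of 190 mesenchymal barcodes. Without thinning, the shares were 89.3% and 81.8% of mural, 4.71% and 7.5% of endothelial and 7.92% and 5.24% of mesenchymal barcodes. Thinning left out 10 and 8 mural, 3 and 4 endothelial, and 32 and 20 mesenchymal barcodes as too shallow.

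Ligands and receptors of vessel growth lay on opposite sides. Of 31 PDGF, angiopoietin, VEGF and ephrin genes tested, 13 were higher and 11 lower in mural than in endothelial barcodes, and 12 were higher and 7 lower than in mesenchymal barcodes. All genes stood at 18.5%, 14.9%, 16.5% and 15.2% in the same order. Flt1, Tie1, Kdr and Pdgfb were higher than in mesenchymal and lower than in endothelial barcodes, and the cap on endothelial genes in mesenchymal barcodes bears on them too. Pdgfrb stood at 472 and 421 CPM in mural barcodes, against 9.297 and 1.35 in endothelial (6.17 ± 0.37) and 72.9 and 73.5 in mesenchymal barcodes (2.44 ± 0.26), while its ligand Pdgfb stood at 20.9 and 11.5 CPM in mural barcodes and 161 and 246 in endothelial barcodes (-3.59 ± 0.42). Angpt1, which steadies the endothelium through the receptor Tek, had 35.3 and 21.4 CPM in mural barcodes against 0 UMIs in endothelial barcodes, at least 17.7-fold and 5.27-fold higher, and did not pass the threshold against mesenchymal barcodes at 17.5 and 15.3 CPM (0.61 ± 0.23). Tek itself stood at 5.76 and 2.61 CPM in mural barcodes and 140.1 and 141 in endothelial barcodes. The gap junction gene Gja4 had 148 and 85.05 CPM in mural barcodes, 0 UMIs in mesenchymal barcodes (at least 669-fold and 271-fold higher) and 62.4 and 36.5 CPM in endothelial barcodes. Vegfa stood at 67.3 and 43.3 CPM in mural barcodes, above 31.9 and 21.7 in endothelial barcodes (1.09 ± 0.17) and below 92.6 and 59.7 in mesenchymal barcodes (-0.63 ± 0.14). The call against mesenchymal barcodes was lost with DESeq2 (-0.65) and without the replicate block (-0.62).

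Channels, receptors and second messengers of vascular tone were mostly higher in mural barcodes. Of 46 genes tested, 36 were higher and 4 lower than in endothelial barcodes, and 39 were higher and 2 lower than in mesenchymal barcodes. The median log2 fold change against endothelial barcodes was 4.72, or 3.05 with 11 genes that had 0 UMIs on 1 side set at their bound. Ednra, the endothelin receptor of smooth muscle, stood at 183 and 163 CPM in mural barcodes, against 1.33 and 0 in endothelial and 7.44 and 7.23 in mesenchymal barcodes (4.39 ± 0.25). Edn1, its peptide ligand, stood at 1.799 and 1.04 CPM in mural barcodes and 114 and 257 in endothelial barcodes (-6.75 ± 0.37), so the receptor and the ligand were on opposite sides in both libraries.

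The nitric oxide path was divided in the same manner. Nos3, the endothelial synthase, stood at 5.04 and 5.22 CPM in mural barcodes and 104 and 94.8 in endothelial barcodes (-4.24 ± 0.24). The subunits of its receptor, soluble guanylate cyclase, were on the mural side: Gucy1a1 at 327 and 245 CPM in mural barcodes, against 11.3 and 2.71 in endothelial ones (5.24 ± 0.31). Gucy1b1 stood at 187 and 137 CPM in mural barcodes, against 10.6 and 8.12 in endothelial ones (4.14 ± 0.21). Prkg1, the kinase that cyclic GMP activates, stood at 83.5 and 71.5 CPM in mural barcodes, against 6.64 and 5.41 in endothelial ones, and Pde5a, which breaks cyclic GMP down, at 155 and 124 in mural barcodes, against 6.64 and 1.35 in endothelial ones. Pde3a, a phosphodiesterase of cyclic AMP, had 236 and 176 CPM against 0 UMIs in endothelial barcodes, at least 118-fold and 43.3-fold higher. Among receptors of circulating vasoconstrictors, Agtr1a for angiotensin stood at 37.1 and 48 CPM in mural barcodes, against 3.32 and 0 in endothelial and 4.86 and 5.13 in mesenchymal barcodes. Avpr1a for vasopressin stood at 38.1 and 29.7 CPM in mural barcodes, against 0 UMIs in endothelial and 5.01 and 2.72 CPM in mesenchymal barcodes. The genes lower than in mesenchymal barcodes were Kcnma1, a calcium-activated potassium channel, and Pde3b, with Kcnma1 at 8.27 and 16.7 CPM in mural and 87.3 and 66.1 in mesenchymal barcodes.

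Basement membrane genes were present in both cell types of the vessel wall. Of 21 tested, 10 were higher and 3 lower than in endothelial barcodes (median 0.90), and 12 were higher and 5 lower than in mesenchymal barcodes (median 1.02). Beside the 14.9% of all genes, the 3 lower than in endothelial barcodes were no excess. Col4a1, the common chain of basement membrane collagen, stood at 2813 and 2830 CPM in mural and 2526 and 2751 in endothelial barcodes, a difference of 0.15 ± 0.16 on the log2 scale that did not pass the threshold, against 87.7 and 95.3 in mesenchymal barcodes (4.78 ± 0.18). Hspg2, perlecan, stood lower in mural barcodes than in either neighbour, at 178 and 157 CPM in mural barcodes, against 488 and 519.8 in endothelial and 339 and 379 in mesenchymal barcodes. Of 16 integrin genes, 9 were higher and 4 lower than in endothelial barcodes, and 7 were higher and 3 lower than in mesenchymal barcodes. Those 3 stood near the 15.2% of all genes. Itga1, a collagen receptor subunit, stood at 468 and 473 CPM in mural barcodes, against 139 and 145 in endothelial and 16.1 and 14.6 in mesenchymal barcodes. Itga7, a laminin receptor subunit of muscle, stood at 131 and 108 CPM in mural barcodes, against 5.31 and 4.06 in endothelial and 6.63 and 6.29 in mesenchymal barcodes. Itga6, a laminin receptor subunit of endothelium, lay on the other side, at 28.4 and 22.4 CPM in mural and 285 and 330.3 in endothelial barcodes.

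Interstitial matrix genes were mostly higher than in endothelial and lower than in mesenchymal barcodes. Of 37 tested, 32 were higher and 2 lower than in endothelial barcodes (median 4.402, or 4.12 with 2 genes at their bound), whereas 1 was higher and 31 lower than in mesenchymal barcodes (median -1.46). Col1a1 stood at 5114 and 9178 CPM in mural barcodes, against 57.8 and 40.6 in endothelial and 34297 and 35928 in mesenchymal barcodes. Few barcodes held most of it: the 10 highest gave 68.1% of the mural Col1a1 UMIs in the pooled library and 75.3% in replicate 3. The median mural barcode had 10.2 and 10.3 Col1a1 UMIs per 10000, against 0 and 0 in endothelial and 313 and 329 in mesenchymal barcodes. With marker sums of at least 5 UMIs, the Col1a1 call against mesenchymal barcodes was lost (-1.62). Fn1, fibronectin, stood at 852 and 1156 CPM in mural barcodes, against 203 and 89.3 in endothelial and 7790 and 5828 in mesenchymal barcodes. The mesenchymal markers of the check above hold some of these genes, and their part in the mural matrix level was not tested beyond leaving out the fringe of 11, after which the Col1a1 difference was 6.64 against endothelial and -2.99 against mesenchymal barcodes on the log2 scale. The gene above the mesenchymal level was Eln, the elastin of arterial walls, at 491 and 592 CPM in mural barcodes, against 148 and 168 in endothelial (1.81 ± 0.21) and 109.7 and 197 in mesenchymal barcodes (1.69 ± 0.20). Lox, a collagen cross-linking oxidase, stood at 162 and 243 CPM in mural, 6.64 and 5.41 in endothelial and 980.3 and 822 in mesenchymal barcodes, so the mural level lay between them in both libraries.

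Hypoxia genes were called in both directions, at shares not far from those of all genes against endothelial barcodes (18.5% higher and 14.9% lower). Of 32 tested, 9 were higher and 4 lower than in endothelial barcodes (median 0.02), and 8 were higher and 11 lower than in mesenchymal barcodes (median -0.20). Against mesenchymal barcodes, all genes stood at 16.5% higher and 15.2% lower, so the 11 lower were above that share. Hif1a stood at 247 and 236 CPM in mural barcodes, against 293 and 332 in endothelial (-0.32 ± 0.16, not past the threshold) and 502 and 378 in mesenchymal barcodes (-1.02 ± 0.16). The reads are 3′ tags that can lie outside the floxed part of the gene, so these levels do not check the deletion. Epas1, which encodes HIF-2α, an oxygen-regulated factor of endothelium and pericytes, stood at 307 and 259 CPM in mural barcodes, against 365 and 336 in endothelial (-0.26 ± 0.13, not past the threshold) and 5.08 and 4.295 in mesenchymal barcodes (5.74 ± 0.16). Ndufa4l2 and Cox4i2, mitochondrial genes that respond to oxygen and mark pericytes, were higher than in endothelial barcodes, Ndufa4l2 at 432 and 433 CPM in mural against 21.2 and 2.71 in endothelial barcodes. Cox4i2 stood at 80.2 and 91.3 CPM in mural against 3.98 and 1.35 in endothelial barcodes. Pdk1, which limits the entry of pyruvate into mitochondria, and Bnip3, a mitophagy receptor, were lower than in mesenchymal barcodes, Pdk1 at 6.84 and 5.22 CPM in mural against 21.2 and 16.97 in mesenchymal barcodes and Bnip3 at 11.5 and 12.5 in mural against 42.3 and 29.9 in mesenchymal barcodes.

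Limb patterning genes were mostly higher than in endothelial barcodes, and none was higher than in mesenchymal barcodes. Of 15 tested, 10 were higher and 3 lower than in endothelial barcodes (median 4.07, or 1.64 with 4 genes at their bound), and 0 were higher and 6 lower than in mesenchymal barcodes. Among all genes, 18.5% were higher and 14.9% lower in the first comparison, and 16.5% and 15.2% in the second. Hoxa11, whose promoter drives the Cre, had 13.3 and 10.4 CPM in mural barcodes, 0 UMIs in endothelial barcodes (at least 6.68-fold and 2.57-fold higher) and 25.7 and 32.5 CPM in mesenchymal barcodes (-1.42 ± 0.25). Shox2, a gene of limb outgrowth, stood at 126 and 106 CPM in mural, 0.664 and 0 in endothelial and 137 and 109 in mesenchymal barcodes, where the difference of -0.24 ± 0.17 did not pass the threshold. Pitx1, a hindlimb factor, and Hoxd11 were low in mural barcodes, Pitx1 at 0.7196 and 2.61 CPM in mural barcodes against 34.04 and 35.4 in mesenchymal ones (-4.66 ± 0.33). Hoxd11 stood at 0 and 1.04 CPM in mural against 14.8 and 13.1 in mesenchymal barcodes.

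Cytokine and chemokine genes were mostly higher in mural barcodes. Of 28 tested, 17 were higher and 4 lower than in endothelial barcodes (median 1.93), and 19 were higher and 3 lower than in mesenchymal barcodes (median 1.32). Il6 stood at 658 and 820.2 CPM in mural barcodes, against 123 and 89.3 in endothelial (2.84 ± 0.22) and 22.8 and 19.5 in mesenchymal barcodes (4.97 ± 0.24). Ccl2, which recruits monocytes, stood at 1266 and 1757 CPM in mural barcodes, against 56.4 and 24.4 in endothelial and 328 and 418 in mesenchymal barcodes. Ccl11, which recruits eosinophils, stood at 253 and 354 CPM in mural barcodes, against 0.664 and 0 in endothelial and 9.73 and 12.99 in mesenchymal barcodes. The alarmin Il33 had 88.9 and 80.9 CPM against 0 UMIs in endothelial barcodes, at least 44.6-fold and 19.9-fold higher, and Ccl19 and Il34 were likewise at 0 there. Ackr1, a chemokine-binding protein of venular endothelium, lay on the other side at 4.32 and 1.04 CPM in mural against 150.1 and 116 in endothelial barcodes. Il6 was detected in 48.8% and 52.2% of mural barcodes thinned to 5000 UMIs, against 29.3% and 27.8% of endothelial and 4.80% and 7.37% of mesenchymal ones. For Ccl2 the shares of mural and mesenchymal barcodes lay closer, at 44.6% and 56.5% of mural, 7.32% and 0% of endothelial and 35.8% and 32.1% of mesenchymal ones. Of 17 immediate early and heat shock genes that tissue digestion can raise, 3 were higher and 1 lower than in endothelial barcodes, and 8 were higher and 1 lower than in mesenchymal barcodes. The share higher than in endothelial barcodes was near the 18.5% of all genes. The 8 of 17 higher than in mesenchymal barcodes stood above the 16.5% of all genes. How far digestion bears on the cytokine levels above was not tested.

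Signals of the TGF-beta and BMP family, ossification genes and division genes completed the lists. Of 32 TGF-beta and BMP genes, 14 were higher and 11 lower than in endothelial barcodes, and 11 were higher and 9 lower than in mesenchymal barcodes. For all genes the shares were 18.5%, 14.9%, 16.5% and 15.2% in the same order. Id4, a BMP target, stood at 468 and 234 CPM in mural barcodes, against 17.9 and 9.48 in endothelial and 5.45 and 6.29 in mesenchymal barcodes. Bmp2 stood at 78.1 and 44.4 CPM in mural barcodes, against 11.3 and 20.3 in endothelial and 13.6 and 12.4 in mesenchymal barcodes, while Bmp4 was at 0.7196 and 1.04 in mural barcodes, against 19.9 and 21.7 in endothelial barcodes. Of 13 ossification and cartilage genes, 10 were higher and 0 lower than in endothelial barcodes (median 4.03, or 2.67 with 1 gene at its bound), and 3 were higher and 6 lower than in mesenchymal barcodes. Sox9, a transcription factor of cartilage, stood at 4.68 and 16.7 CPM, against 196 and 112 in mesenchymal barcodes (-4.11 ± 0.53). Acan stood at 41.7 and 80.4 CPM in mural barcodes, against 1.99 and 0 in endothelial barcodes, and was among the genes lower than in mesenchymal barcodes. Of 20 division genes, 8 were higher and 0 lower than in endothelial barcodes, and 2 were higher and 0 lower than in mesenchymal barcodes. Beside the 16.5% of all genes, those 2 were no excess. With at least 10 UMIs of 8 division genes as a count of dividing barcodes, 11 of 131 (8.40%, 4.27 to 14.5) and 3 of 77 (3.90%, 0.811 to 10.97) mural barcodes qualified, against 7 of 85 and 1 of 40 endothelial and 32 of 303 and 16 of 210 mesenchymal barcodes.

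The class was then split by a cut through a range, which does not separate pericytes from smooth muscle cells as types. A barcode was contractile-leaning where Myh11, Cnn1 and Lmod1 gave more UMIs than Abcc9, Kcnj8 and Higd1b, and channel-leaning where they gave fewer. The pooled library held 63 contractile-leaning and 64 channel-leaning barcodes with 4 ties, and replicate 3 held 29 and 43 with 5 ties. Contractile-leaning barcodes were 48.1% (39.3 to 57.0) and 37.7% (26.9 to 49.4) of the mural barcodes, with exact 95% binomial intervals that overlapped between libraries. The cut ran through the range, since 39 of the 208 barcodes lay within 5 UMIs of it. Median depth was 18401 and 22263 UMIs in contractile-leaning barcodes and 20767 and 23073 in channel-leaning ones. Rgs5, which took no part in the split, stood at 5409 and 2336 CPM in contractile-leaning and 5691 and 5796 in channel-leaning barcodes.

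**Figure D2:**
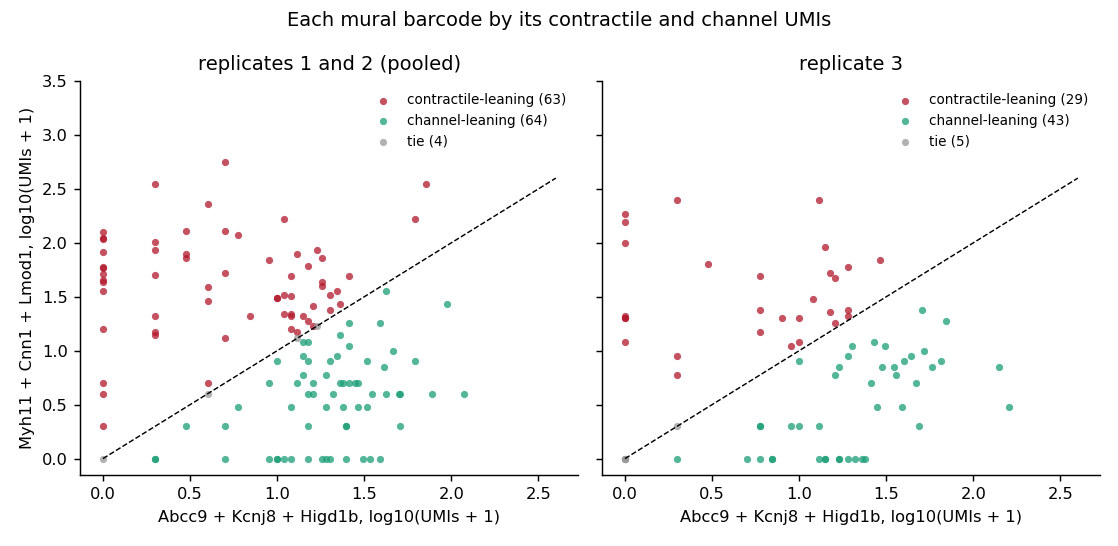
Each mural barcode by its summed UMIs of Myh11, Cnn1 and Lmod1 (vertical) and of Abcc9, Kcnj8 and Higd1b (horizontal), both as log10(UMIs + 1), in the pooled library (left) and replicate 3 (right), with the line of equal sums dashed. Points run along both axes and also fill the space between them, with 63 and 29 contractile-leaning and 64 and 43 channel-leaning barcodes.

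Across the split, 327 of 10532 genes tested were higher in contractile-leaning barcodes (3.1%) and 218 were lower (2.07%), together 5.17%, at an adjusted p under 0.05 by the same edgeR test with Benjamini-Hochberg adjustment. The split read 6 genes of the same barcodes, so genes that vary with those 6 were bound to differ, and the counts are read only beside these shares. Over all genes tested, the median log2 fold change was 0.00. The mesenchymal markers moved with the split, at 2064 and 8059 CPM in contractile-leaning and 9229 and 12154 in channel-leaning barcodes, with Pdgfra at 0 UMIs in the contractile-leaning barcodes of the pooled library. In replicate 3, 3 of the 29 contractile-leaning barcodes gave 73.95% of the mesenchymal-marker UMIs of that side. Its deepest contractile-leaning barcodes, with 88749 and 88826 of the 756913 UMIs of that side, had 0 UMIs of Rgs5 and of Tinagl1. They had 5 and 2 UMIs of Myh11, so they were not in the fringe of 11. Their part in the contractile-leaning levels of replicate 3 was not tested on its own. Hemoglobin genes stood at 50.7 and 23.8 CPM in contractile-leaning and 7536 and 29.7 in channel-leaning barcodes. Leaving out the 5 barcodes with over 1% hemoglobin UMIs gave 338 genes higher and 257 lower, and leaving out the 20 members with 2 or more Pdgfra UMIs gave 420 and 217.

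Of the 22 contractile genes tested, 18 were higher in contractile-leaning barcodes and 0 lower, beside the 3.1% of all genes, with a median log2 fold change of 1.90. Acta2 stood at 12068 and 9972 CPM in contractile-leaning barcodes, against 1391 and 1283 in channel-leaning ones (log2 fold change 3.11 ± 0.20, edgeR adjusted p = 0.000299). The summed channel-leaning level still lay above the 560.1 and 634 CPM of mesenchymal barcodes. That sum was uneven, since single channel-leaning barcodes ran from 0 to 290 and from 0 to 294 Acta2 UMIs. Thinned to 5000 UMIs, 65.6% and 72.5% of channel-leaning barcodes had Acta2, against 44.6% and 40% of mesenchymal ones. Tagln stood at 8863 and 6462 CPM in contractile-leaning against 960.4 and 773 in channel-leaning barcodes (3.21 ± 0.22, adjusted p = 0.000299). Actg2 stood at 870.4 and 972 CPM in contractile-leaning against 24.2 and 25.1 in channel-leaning barcodes (5.29 ± 0.38, adjusted p = 0.000803). Sorbs2, a scaffold of contractile filaments, stood at 362 and 211 CPM in contractile-leaning against 17.6 and 18.6 in channel-leaning barcodes. Pln stood at 99.2 and 97.8 CPM in contractile-leaning against 0 and 0.929 in channel-leaning barcodes. Each of these genes was higher in contractile-leaning barcodes in both libraries. The 3 genes with a strict CArG box in the promoters printed above were among the 18: Myl9 had a log2 fold change of 2.51 ± 0.23 (adjusted p = 0.000985), Myl6 of 1.61 ± 0.18 (0.00215) and Vcl of 0.96 ± 0.14 (0.00795). Acta2, whose printed window held near matches and no strict box, was among the 18 as well. Vcl lost its call after thinning (0.53). Des was an exception, at 381 and 489 CPM in contractile-leaning and 357 and 375 in channel-leaning barcodes (0.31 ± 0.27, adjusted p = 0.59).

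**Figure D3:**
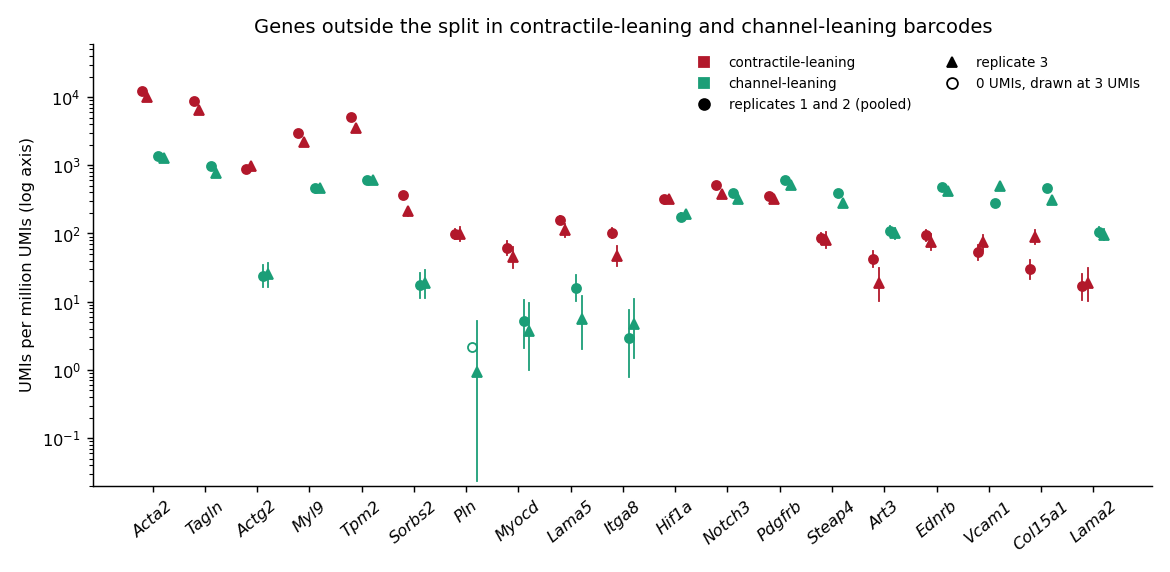
CPM (log axis) of 19 genes outside the split in contractile-leaning and channel-leaning mural barcodes of the pooled library (circles) and replicate 3 (triangles), with exact 95% Poisson intervals for counting error, cut off at the axis edge, and 0 UMIs drawn open at the level of 3 UMIs. Contractile genes, Myocd, Lama5 and Itga8 stood higher in contractile-leaning barcodes, Notch3 lay close together in both, and Steap4, Art3, Ednrb, Vcam1, Col15a1 and Lama2 stood higher in channel-leaning barcodes.

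Myocd was the 1 gene of 26 mural transcription factors past the threshold, at 61.5 and 44.9 CPM in contractile-leaning barcodes, against 5.14 and 3.72 in channel-leaning ones (3.65 ± 0.45, edgeR adjusted p = 0.00336). After thinning, it stood at 2.89 and did not pass. As a count, 1 of 26 was near the 3.1% of all genes. Foxs1 stood at 76.1 and 51.5 CPM in contractile-leaning against 60.2 and 76.2 in channel-leaning barcodes (-0.02 ± 0.27, adjusted p = 0.985). Fewer pericyte-list genes passed: of 16 tested, 0 were higher and 2 lower, beside 2.07% of all genes, with a median of -0.58. The 2 were Steap4, a metalloreductase, at 84.6 and 80.6 CPM in contractile-leaning against 391 and 281 in channel-leaning barcodes (-1.95 ± 0.24, adjusted p = 0.00393). Art3, an ADP-ribosyltransferase family member, stood at 42.3 and 18.5 CPM in contractile-leaning against 109 and 101 in channel-leaning barcodes (-1.70 ± 0.33, adjusted p = 0.022), and its call was lost after thinning (-1.58). Pdgfrb stood at 351 and 321 CPM in contractile-leaning against 606 and 521 in channel-leaning barcodes (-0.68 ± 0.25, adjusted p = 0.177). Vtn stood at 155 and 127 CPM in contractile-leaning against 192 and 129 in channel-leaning barcodes. None of the 18 Notch genes passed the threshold in either direction: Notch3 stood at 519.8 and 375 CPM in contractile-leaning and 390.3 and 325 in channel-leaning barcodes (0.37 ± 0.21, adjusted p = 0.371). Heyl stood at 47.7 and 39.6 CPM in contractile-leaning and 72.6 and 69.7 in channel-leaning barcodes.

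Of 45 vascular tone genes tested, 8 were higher and 1 lower in contractile-leaning barcodes, beside 3.1% and 2.07% of all genes, so the lower share was near that of all genes. P2rx1, the ATP-gated channel by which sympathetic nerves contract arteries, had 178 and 48.9 CPM in contractile-leaning barcodes and 0 UMIs in channel-leaning ones, at least 81.1-fold and 17.5-fold higher. Ryr2, a calcium release channel, and Cacna1h, a T-type calcium channel, were also at 0 in channel-leaning barcodes, and Ryr2 was at least 12.6-fold and 4.74-fold higher in contractile-leaning ones. With DESeq2, neither P2rx1 nor Ryr2 passed the threshold. Pde3a stood at 328 and 268 CPM in contractile-leaning against 159 and 124 in channel-leaning barcodes (1.15 ± 0.18, edgeR adjusted p = 0.015). Of the endothelin receptors, Ednrb passed, at 93.8 and 75.3 CPM in contractile-leaning barcodes, against 486 and 419 in channel-leaning ones (-2.37 ± 0.40, adjusted p = 0.0143), while Ednra stood at 171 and 115 CPM in contractile-leaning and 199.6 and 209 in channel-leaning barcodes (-0.45 ± 0.25, adjusted p = 0.366). Without the 6 barcodes that held Ptprc UMIs, the Ednrb difference was -2.39 and no longer passed the threshold. Agtr1a stood at 20.8 and 21.1 CPM in contractile-leaning against 55.02 and 69.7 in channel-leaning barcodes (-1.49 ± 0.36, adjusted p = 0.0504).

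**Figure D4:**
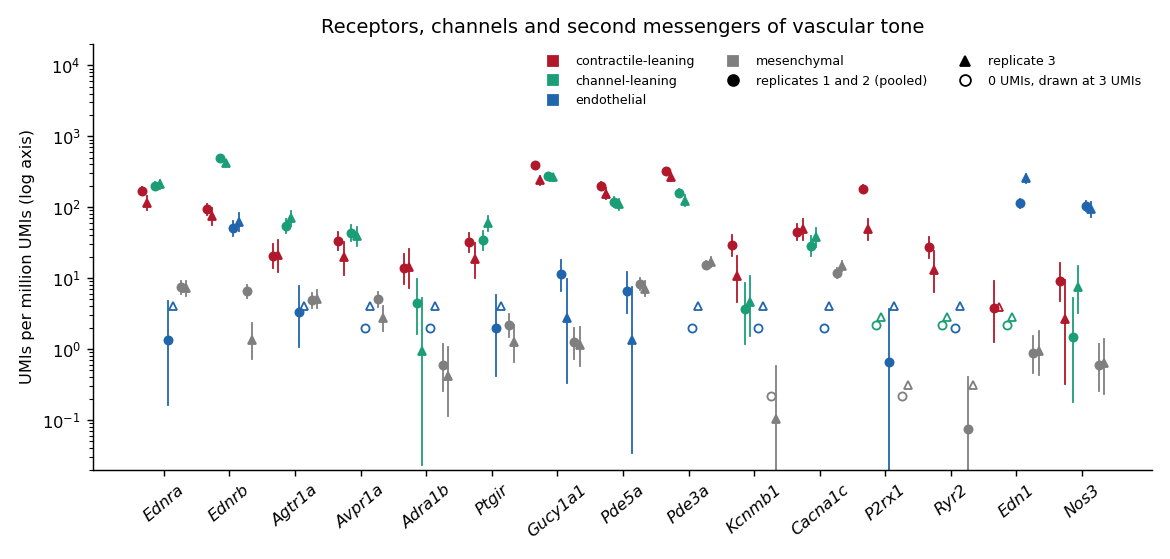
CPM (log axis) of 15 vascular tone genes in contractile-leaning, channel-leaning, endothelial and mesenchymal barcodes of the pooled library (circles) and replicate 3 (triangles), with exact 95% Poisson intervals for counting error, cut off at the axis edge, and 0 UMIs drawn open at the level of 3 UMIs. Ednra and Gucy1a1 stood high in both kinds of mural barcode, Ednrb was highest in channel-leaning ones, P2rx1 was at 0 in channel-leaning ones, and Edn1 and Nos3 were highest in endothelial barcodes.

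The basement membrane differed in its chains. Of 21 genes tested, 4 were higher and 8 lower in contractile-leaning barcodes, beside 3.1% and 2.07% of all genes. Lama5, a laminin chain, stood at 159.9 and 112 CPM in contractile-leaning barcodes, against 16.1 and 5.58 in channel-leaning ones (3.74 ± 0.31, edgeR adjusted p = 0.000803). Lama2, another, stood at 16.9 and 18.5 CPM in contractile-leaning against 106 and 96.7 in channel-leaning barcodes (-2.45 ± 0.32, adjusted p = 0.00315), so these 2 laminin chains differed in opposite directions. After thinning, Lama2 (-2.06), Col4a4 (-3.48) and Ntn4 (1.34) kept their direction and lost their call. Col4a1 stood at 1659 and 1688 CPM in contractile-leaning against 4103 and 3835 in channel-leaning barcodes (-1.18 ± 0.16, adjusted p = 0.00541). Col15a1, a collagen of the outer basement membrane, stood at 29.99 and 89.8 CPM in contractile-leaning against 467 and 310.4 in channel-leaning barcodes (-2.73 ± 0.44, adjusted p = 0.0113). Tinagl1 was higher in contractile-leaning barcodes, at 1050 and 721 CPM in contractile-leaning against 445 and 372 in channel-leaning barcodes (1.17 ± 0.16, adjusted p = 0.00595). Of 15 integrin genes, 2 were higher and 0 lower, among them Itga8, the nephronectin receptor subunit, at 101 and 47.6 CPM in contractile-leaning against 2.93 and 4.65 in channel-leaning barcodes (4.42 ± 0.62, adjusted p = 0.00583).

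Of 37 interstitial matrix genes, 2 were higher (Tnc and Thbs1) and 2 lower (Mfap4 and Dcn) in contractile-leaning barcodes. Beside 3.1% and 2.07% of all genes, counts this small are not read as a result about the list. The direction of both lower ones turned without the barcodes with 2 or more Pdgfra UMIs: Dcn, decorin, stood at 181 and 595 CPM in contractile-leaning against 1744 and 1849 in channel-leaning barcodes (-2.28 ± 0.40, edgeR adjusted p = 0.0158), and 0.98 on the log2 scale without those barcodes, and Mfap4, a microfibril protein, was at -3.01 ± 0.65 and 1.41. Tnc, tenascin, stood at 147 and 674 CPM in contractile-leaning against 65.3 and 92 in channel-leaning barcodes, and in contractile-leaning barcodes it was higher in replicate 3 than in the pooled library. Its call was lost without the replicate block (2.45). Eln stood at 722 and 691 CPM in contractile-leaning against 307 and 569 in channel-leaning barcodes (0.83 ± 0.26, adjusted p = 0.112) and at 3.12 without the barcodes with 2 or more Pdgfra UMIs (adjusted p = 0.002). Lox stood at 161 and 243 CPM in contractile-leaning against 129 and 229.5 in channel-leaning barcodes (0.25 ± 0.26, adjusted p = 0.658) and at 2.53 without them (adjusted p = 0.0011). Elastin and its cross-linking enzyme therefore passed the threshold once those barcodes were left out, an alternative chosen after the data were seen. They also passed without the fringe of 11 (Eln 1.67 and Lox 1.35), and Eln passed after thinning (0.99). Both exclusions fell mostly on channel-leaning barcodes, which went from 64 and 43 to 56 and 35 without the Pdgfra barcodes and to 60 and 38 without the fringe. Contractile-leaning barcodes went from 63 and 29 to 63 and 27 without the Pdgfra barcodes and kept their number without the fringe. Removal mostly from the channel-leaning side favours such calls, so they do not stand as separate checks. Plod2, the lysyl hydroxylase of collagen telopeptides, did not pass at 29.99 and 120.2 CPM in contractile-leaning against 129.9 and 125 in channel-leaning barcodes (-0.82 ± 0.48, adjusted p = 0.396).

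Among the other lists, 2 of 31 hypoxia genes were higher in contractile-leaning barcodes and 0 lower, beside 3.1% and 2.07% of all genes. They were Hif1a, at 319 and 316 CPM in contractile-leaning against 175 and 192 in channel-leaning barcodes (0.86 ± 0.18, edgeR adjusted p = 0.0291), and the glycolytic gene Pkm. The Hif1a call was lost without a filter on low counts (0.82) and after thinning (0.76), and the Pkm call after thinning (0.54). Epas1 stood at 365 and 289 CPM in contractile-leaning against 267 and 247 in channel-leaning barcodes (0.41 ± 0.15, adjusted p = 0.165). Of 30 TGF-beta and BMP genes, 4 were higher and 2 lower, beside 3.1% and 2.07% of all genes. The lower ones were Ltbp4 and Tgfbr2, and without the barcodes with 2 or more Pdgfra UMIs they stood at -0.27 and -0.13 and were not called. Both calls were also lost without the fringe of 11 and with a difference of at least 5 UMIs in the split. Of the higher ones, Ltbp1 lost its call after thinning. Id4 stood at 769 and 411 CPM in contractile-leaning against 197 and 125 in channel-leaning barcodes (1.92 ± 0.25, adjusted p = 0.00427). Of 31 PDGF, angiopoietin, VEGF and ephrin genes, 3 were higher (Efnb2, Pdgfc and S1pr1) and 1, Pdgfra, lower, beside 3.1% and 2.07% of all genes. Efnb2, the ephrin of arteries, stood at 51.5 and 36.99 CPM in contractile-leaning against 13.2 and 7.43 in channel-leaning barcodes (2.16 ± 0.29, adjusted p = 0.00496). Efnb2 and S1pr1 were lower in mural than in endothelial barcodes. The endothelial markers summed to 291 and 112 CPM in contractile-leaning and 133 and 113 in channel-leaning barcodes. In each library 3 barcodes gave 97.6% of the contractile-leaning sum, and their part in the Efnb2 and S1pr1 calls was not tested. After thinning, all 3 higher genes lost their call, Efnb2 at 1.96, Pdgfc at 2.50 and S1pr1 at 1.01, and S1pr1 lost it in 6 other alternatives as well. Pdgfra lost its call with DESeq2 and without the fringe.

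Of 28 cytokine, chemokine and adhesion genes, 0 were higher and 2, C3 and Vcam1, lower in contractile-leaning barcodes, beside 2.07% of all genes. The C3 call was lost without the fringe of 11 (-0.67) and without the barcodes with 2 or more Pdgfra UMIs (-0.78). Vcam1, an adhesion molecule for leukocytes, stood at 53.1 and 73.98 CPM in contractile-leaning barcodes, against 277 and 489 in channel-leaning ones (-2.50 ± 0.24, edgeR adjusted p = 0.00112), and at -0.51 without the barcodes with 2 or more Pdgfra UMIs, where it did not pass. It was lost after thinning too (-1.06). Il6 stood at 624 and 787 CPM in contractile-leaning and 744 and 905 in channel-leaning barcodes (-0.16 ± 0.22, adjusted p = 0.744), so both sides held it at a level above that of endothelial and mesenchymal barcodes. Of 20 division genes, 0 passed in either direction, of 17 immediate early genes 1 was higher (Hspb1), of 13 ossification genes 1 was higher (Msx2), and of 15 limb patterning genes 1 was higher (Shox2, at 155 and 163 CPM in contractile-leaning against 101 and 73.4 in channel-leaning barcodes). These shares stand beside 3.1% of all genes. The Shox2 call was lost with a difference of at least 5 UMIs in the split (0.89), without the replicate block (0.93), without the barcodes with Ptprc UMIs (0.90) and after thinning (0.84), and the Msx2 call with DESeq2 (4.99). Hoxa11 stood at 14.6 and 5.28 CPM in contractile-leaning and 12.5 and 14.9 in channel-leaning barcodes (-0.25 ± 0.47, adjusted p = 0.839).

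The wild-type sections gave a measure the single-cell rule did not use. A Visium spot covers a small region that can hold several cells or part of one, so fewer mural cells and less RNA per cell cannot be told apart in it. After spots with under 100 UMIs were left out, 33.9% of 3504 spots of section A1 and 25.4% of 3185 spots of B1 held a UMI of Rgs5, Myh11, Abcc9 or Mylk, and Rgs5 gave 88.9% and 81.6% of these UMIs. Spots were called mural-marker spots where these UMIs lay above the section's own rate with a Poisson tail under 0.001, which 29 spots of A1 (3 to 13 marker UMIs each) and 14 of B1 (3 to 15) met. They held 37232 and 20785 UMIs in all, and their median depth was 1378 and 1391 UMIs, against 457 and 516 in the other spots. In the authors' spatial autocorrelation, where 0 means no pattern, Rgs5 had a Moran's I of 0.105 in A1 and 0.0588 in B1, Myh11 0.0223 and 0.0438, and Acta2 0.00209 and 0.0680, so Acta2 had next to no pattern in A1.

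**Figure D5:**
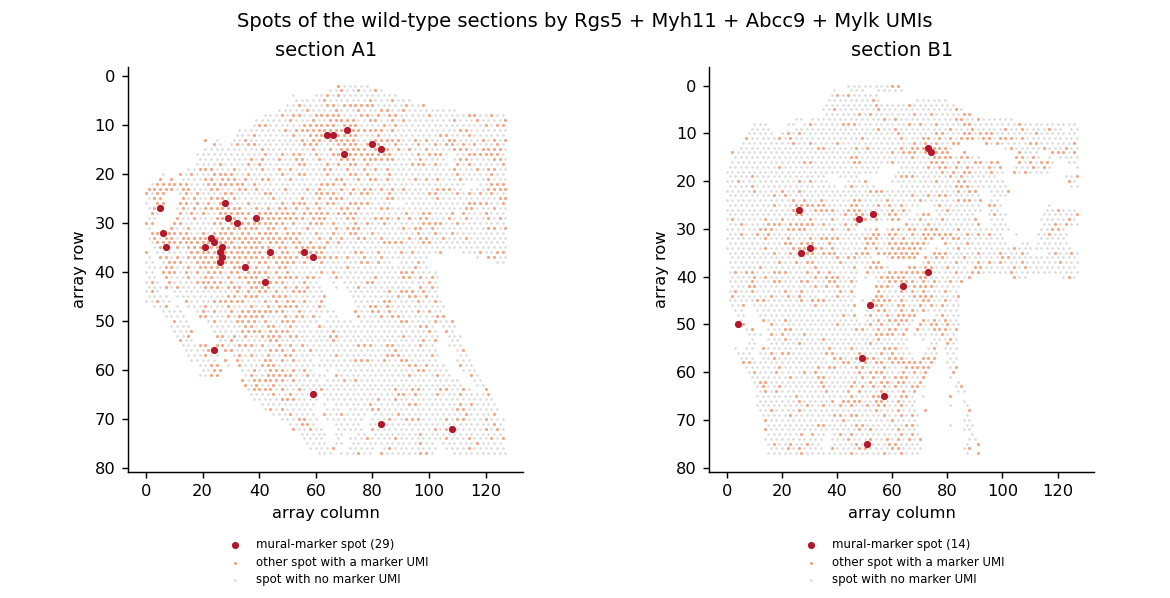
Spots of the wild-type sections A1 (left) and B1 (right) by array column and row, with mural-marker spots in red (29 and 14), other spots with a marker UMI in orange and spots with none in grey. Mural-marker spots were scattered over both sections, with a denser patch at the left of A1.

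No gene passed the threshold between mural-marker and other spots: 0 of 12163 genes tested were higher and 0 lower (0%) by edgeR with Benjamini-Hochberg adjustment, with a smallest adjusted p of 0.684, and DESeq2 also called 0 in each direction. At an unadjusted p under 0.05, 56 genes were higher and 464 lower, and the median over all genes tested was -0.61 on the log2 scale. Acta2 had 403 and 1010 CPM in mural-marker spots, against 107 and 181 in other spots of A1 and B1 (1.70 ± 0.21, adjusted p = 0.684). Notch3 had 645 and 769.8 CPM, against 260.1 and 193 (1.10 ± 0.21, adjusted p = 0.684), and Col4a1 725 and 818, against 383 and 277 (0.69 ± 0.19, adjusted p = 0.684). For Acta2, Notch3 and Col4a1 the exact 95% Poisson intervals of the 2 kinds of spot did not overlap in either section, and the fit called none of them. Those intervals cover counting error only and leave out the spread between spots, so they are not read as a difference. Pdgfrb had 1101 and 962 CPM, against 779 and 527 (0.16 ± 0.14, adjusted p = 0.688), and Tinagl1 was at 0 UMIs in the mural-marker spots of both sections, which allows up to 80.6 CPM in A1 and 144 in B1, above the 22.1 and 21.9 CPM of other spots. At this depth a difference in Tinagl1 was not detectable. None of the 16 gene lists had a gene past the threshold.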

How the data were processed

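Single-cell RNA sequencing of the tenotomy site was deposited as 2 libraries and Visium as 2 sections. The authors deposited raw UMI counts from Cell Ranger 5.0.1 (mm10) for barcodes called as cells, raw UMI counts from Space Ranger 2.0.1 for spots over tissue, and a Moran's I score per gene and section. The labels give a tamoxifen washout of 9 days. The files held 0 columns of other samples.

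Barcodes with at least 200 genes and at most 20% mitochondrial UMIs were kept, and the ribosomal limit of the study (at least 5%) was an alternative. No doublet caller was run, so doublets were removed only where they failed a clause of the rule. UMI counts were summed per library or section and group. The sums were fitted in R 4.3.3 with edgeR 4.0.16 (TMM, its filter on low counts, quasi-likelihood test, library or section as a block since the groups of a library share its mice), with Benjamini-Hochberg adjustment across the genes of each fit and calls at an adjusted p under 0.05. Mural, endothelial and mesenchymal sums shared 1 fit, and the split of mural barcodes and the spots had a fit each. Levels carry exact 95% Poisson intervals, for counting error only, and 3 UMIs served as the floor for a count of 0. Sums of single libraries ranged from 738754 to 13572998 UMIs across the 3 groups, so a floor of 3 UMIs corresponds to the highest CPM in the endothelial barcodes of replicate 3. DESeq2 1.42.0, its size factors, no filter, no block, other marker limits, thinning and left-out barcodes were alternatives. The script was tested on simulated counts.

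The members and the 16 lists were chosen with earlier results of these data known. The lists were contractile apparatus, pericyte markers, mural transcription factors, Notch, PDGF with angiopoietin, VEGF and ephrin, basement membrane, integrins, interstitial matrix, hypoxia, vascular tone, TGF-beta and BMP, cytokines, cell division, dissociation stress, ossification and limb position. Named genes were those of the rule and the markers, Hif1a, Plod2, Lox, Hoxa11, Vegfa, Pdgfrb and Pdgfra, and per list up to 3 higher and 3 lower genes with the largest change in the same direction in both libraries. Further list genes were named after their values were seen. Promoters came from RefSeq (GRCm38.p6).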

Additional observations from a re-analysis of the deposited data

How the results depend on the processing

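With DESeq2 in place of edgeR, 1133 genes were lower in mural than in endothelial barcodes, and against mesenchymal barcodes 1222 were higher and 996 lower. After thinning to 5000 UMIs, the split gave 145 genes higher and 122 lower in contractile-leaning barcodes, from shallower sums. With other spots matched in UMIs, 1 gene was lower in mural-marker spots. Fbln2 turned to 0.017 against endothelial barcodes with marker sums of at least 5 UMIs. Without the members with 2 or more Pdgfra UMIs, the differences across the split turned to 0.0032 for Pdgfra, 1.41 for Mfap4, 0.98 for Dcn, 0.21 for Pi16 and 0.61 for Smoc2, where the first is low by construction. The other counts of genes stayed within 1.5 times the reported ones in every alternative run.

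With the replicate block left out, mural barcodes gave 2214 genes higher and 1808 lower against endothelial barcodes, 1917 and 1756 against mesenchymal barcodes, and the split gave 317 and 196. Of the values of single genes across alternatives, 59 lost their call and 20 gained one in the split, 20 and 5 against endothelial barcodes, and 35 and 5 against mesenchymal barcodes. No test could be had with 1 library left out, because a single sum per group leaves no residual degrees of freedom, so each library's own log2 ratio stood in for it. The number of mural barcodes ran from 182 with marker sums of at least 20 UMIs to 246 with at least 5. The sections held 2 sums per kind of spot, with 37232 and 20785 UMIs in all mural-marker spots.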

Other observations

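Genes outside the lists, chosen after their values were seen, extended the account of vascular tone. Npy1r, the receptor by which neuropeptide Y of sympathetic nerves constricts arteries, stood at 124 and 68.9 CPM in mural barcodes, against 0.664 and 0 in endothelial and 0.8104 and 0.2095 in mesenchymal barcodes. Adra2a, an alpha-2 adrenergic receptor, stood at 126 and 95.5 CPM in mural barcodes, against 1.99 and 1.35 in endothelial and 6.12 and 4.71 in mesenchymal barcodes, and Kcnk3, an acid-sensitive potassium channel, at 80.95 and 64.7 in mural barcodes, against 1.33 and 0 in endothelial and 0.147 and 0.314 in mesenchymal barcodes. These genes were higher in mural barcodes than in either neighbour in both libraries, in groups that were chosen on marker genes of the same barcodes.

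Across the split, genes chosen in the same way were divided between the sides. Mustn1, a small nuclear protein of muscle, stood at 1389 and 731 CPM in contractile-leaning barcodes, against 59.4 and 68.8 in channel-leaning ones (4.06 ± 0.27 on the log2 scale, edgeR adjusted p = 0.000299, Benjamini-Hochberg), and Nexn, an actin-binding protein, at 334 and 225 in contractile-leaning against 46.95 and 46.5 in channel-leaning barcodes (2.64 ± 0.22, adjusted p = 0.000803). Cxcl14, a chemokine, stood at 3.08 and 5.28 CPM in contractile-leaning barcodes, against 166 and 133 in channel-leaning ones (-5.22 ± 0.31, adjusted p = 0.000161). Lbp, the lipopolysaccharide-binding protein, stood at 0.769 and 1.32 CPM in contractile-leaning against 108 and 82.7 in channel-leaning barcodes (-6.54 ± 0.33, adjusted p = 2.64e-05), and without the members with 2 or more Pdgfra UMIs at -3.78 with an adjusted p of 0.104, where the call was lost.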
